A study of Macaca mulatta with 11 samples.

Results

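The genes described here are 93 molecular chaperones, folding enzymes and stress regulators measured in rhesus macaque (Macaca mulatta) cumulus cells. They were chosen by symbol: HSPA, HSPB, HSPH and HSP90 heat shock proteins, DNAJA, DNAJB and DNAJC cochaperones, PDIA and ERO1 enzymes, CCT chaperonin subunits, FKBP proteins, BAG proteins, calnexin (CANX), heat shock factors, XBP1, ATF4, ATF6, DDIT3, and the SEL1L and HERPUD families. They make up 93 of the 14132 genes that carried their own symbol on the array. The probe set with the highest mean over the 11 arrays stood for each gene, and 49 of the 93 had more than 1 probe set. The rule used no measured difference between groups.

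Cytosolic HSP70 and HSP90 proteins bind and release client proteins, helped by J-domain (DNAJ), BAG and FKBP cochaperones, and the CCT ring folds actin and tubulin. In the endoplasmic reticulum (ER), HSP90B1 and calnexin hold secreted and membrane proteins while protein disulfide isomerases and the ERO1 oxidases form their disulfide bonds. Heat shock factors switch on cytosolic chaperone genes, whereas ATF6, XBP1 and ATF4 raise the ER folding and degradation genes in the unfolded protein response. Cumulus cells surround the oocyte, and after the ovulatory signal they secrete an extracellular matrix and make steroids, so the ER folding machinery handles much of what they produce.

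The study set cumulus cells of in vitro matured cumulus-oocyte complexes against those of in vivo matured ones, looking for markers of oocyte quality, with pre-maturation cells as the starting point. The 3 groups, named after their titles, were 4 pre-maturation samples (PM, immature complexes after FSH stimulation only), 3 in vitro matured samples (IVM, FSH stimulation and then maturation in culture) and 4 in vivo matured samples (VVM, FSH stimulation and then maturation in the animal with hCG). All 3 groups therefore came from FSH-stimulated animals, and the labels give no ages. For each sample, 50 ng of total RNA was amplified in 2 rounds and hybridised to 1 Affymetrix Rhesus Macaque array. Whether each sample came from its own animal is not given in the labels, and the p-values therefore measure the spread among these samples only, which may be technical. The number of arrays limits the precision.

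All levels are log2 of the deposited normalised intensity, a relative scale on which levels of different genes cannot be set against each other. A gene was called higher or lower when its limma p-value, Benjamini-Hochberg adjusted over all 52766 tested probe sets, was under 0.05. The values after ± are standard errors (SE) of differences, or standard deviations (SD) where so marked. RNA was taken from whole cell samples, so fewer cells of a type and less RNA per cell cannot be told apart.

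Some features of the arrays moved with the groups. The log2 array medians were 5.34 to 5.36 in PM, 5.45 to 5.53 in IVM and 5.43 to 5.49 in VVM. The upper quartiles were 7.22 to 7.31, 7.08 to 7.14 and 7.10 to 7.15. The 18 hybridization control probe sets, which read bacterial RNA added at hybridization, averaged 10.06 to 10.43 in the PM arrays, 10.58 to 11.46 in VVM and 11.62 to 12.30 in IVM. These ranges did not overlap, so control level and group cannot be told apart. The 3′ minus 5′ difference of the array maker's GAPDH and ACTB controls, a measure of RNA quality, had means in PM, IVM and VVM of 3.34 ± 0.12, 3.91 ± 0.39 and 3.69 ± 0.19 (SD, n = 4, 3 and 4). Of 14 cumulus and granulosa markers, 13 were measured and their summed linear intensity was 38665 to 48023 in PM, 23109 to 35115 in IVM and 19927 to 26669 in VVM, so the labelled cell type was present throughout. By limma, 10 of the 13 were called lower and 1 higher in VVM than in PM, and 7 lower and 2 higher in IVM than in PM. Between IVM and VVM, 7 were higher in IVM and 0 lower. Of 15 leukocyte markers, 10 were measured and summed to 1403 to 1620 in PM, 692 to 905 in IVM and 720 to 5825 in VVM, with the macrophage gene LYZ at 5.10, 7.62, 9.51 and 4.79 in the 4 VVM arrays. Of the 10, 6 were called higher and 2 lower in VVM than in PM, and 3 were lower and 0 higher in IVM than in VVM (limma). In IVM against PM, 1 was higher and 2 lower. The 5 measured theca and stroma markers summed to 219 to 290 in PM, 388 to 877 in IVM and 367 to 1367 in VVM, and 4 of them were called higher in IVM than in PM. The 6 endothelial markers summed to 261 to 296, 344 to 375 and 327 to 1061, the 2 erythroid markers to 241 to 475, 171 to 212 and 391 to 1087, and the 7 oocyte markers to 605 to 2022, 554 to 654 and 577 to 1000. The part of these differences in the results below was not tested beyond the fits given with the processing settings.

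The chaperone genes moved both ways in every comparison. All 93 were tested with no filter on low values, and 12 of them lay below the array medians in every group. Between IVM and VVM, 12 of the 93 were higher in IVM and 11 lower. That is 12.9% and 11.8% of the members, where 9.06% of all genes were called higher and 7.63% lower, or 16.7% in either direction. Against PM, 21 were higher and 28 lower in IVM (22.6% and 30.1%), beside 25.0% higher and 20.9% lower of all genes, or 45.9% in all. In VVM against PM, 14 were higher and 24 lower (15.1% and 25.8%), beside 18.0% and 21.8% of all genes, or 39.8% in all. The median difference of the members was 0.10 between IVM and VVM (0.08 over all genes), -0.09 between IVM and PM (0.12) and -0.12 between VVM and PM (0.04). With each array centred on its own median the splits were 7 higher and 11 lower, 12 and 32, and 8 and 28. In that scaling, calls to the higher side made up 38.9%, 27.3% and 22.2% of the members' calls, in place of 52.2%, 42.9% and 36.8%. The calls of all genes moved with the scaling too. They were then 7.59% higher and 7.9% lower in IVM against VVM, 14.7% and 24.1% in IVM against PM, and 12.1% and 25% in VVM against PM. A total of 63 members were called in at least 1 comparison and 30 in none. The share of all genes called in at least 1 was not computed.

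**Figure D1:**
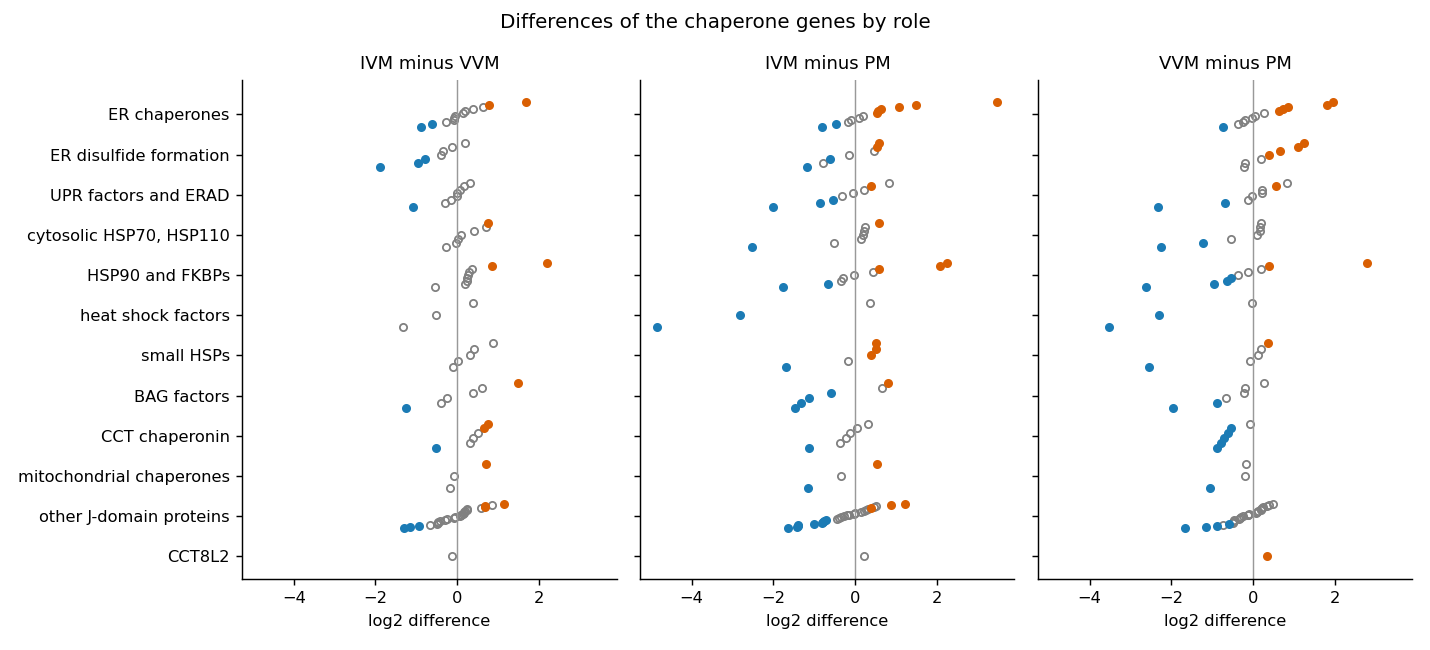
Log2 differences of the 93 chaperone genes, grouped by role, in 3 panels, 1 for each pair of groups. Each point is 1 gene, filled orange where called higher, filled blue where called lower and open grey where not called by limma (adjusted p under 0.05). In VVM against PM, 5 of the 6 CCT subunits are filled blue and 4 of the 7 disulfide formation genes are filled orange. Of all genes, 21.8% were called lower and 18.0% higher in that comparison.

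The ER enzymes that form disulfide bonds were lower after culture maturation than after in vivo maturation where they differed. Of 7 measured, 3 were lower in IVM than in VVM and none was higher by limma (4 lower and 0 higher at an unadjusted p under 0.05). These calls make up 42.9% of the list, where 7.63% of all genes were called lower. Against PM, 4 were higher and 0 lower in VVM (the same at an unadjusted p under 0.05), while IVM had 2 higher and 2 lower. That is 57.1% of the list in each case, beside 39.8% of all genes in VVM and 45.9% in IVM. ERO1A, the oxidase that recharges protein disulfide isomerase, read 7.82, 7.74, 8.51 and 7.86 in PM, 6.99, 6.72 and 7.88 in IVM, and 9.45, 8.24, 8.92 and 9.74 in VVM. On this probe set every VVM array lay above every IVM array, and PM lay between them, overlapping both. ERO1A was 3.71-fold lower in IVM than in VVM (log2 difference -1.89 ± 0.36, adjusted p = 0.00723, limma), the largest fall among the members in that comparison. Its rise in VVM against PM (1.10 ± 0.34, adjusted p = 0.0284) was lost without PM 1, PM 2, PM 4, VVM 1 or VVM 4 (differences of 0.89 to 1.38 in the fits that left out 1 array, adjusted p up to 0.0738), and 1 of its other probe sets was called lower there. That probe set (mean 7.72 against 8.17) was called lower in IVM than in PM as well (-1.56 ± 0.24, adjusted p = 0.000544, limma). It was also called lower in IVM than in VVM (-0.93 ± 0.24, adjusted p = 0.027). The place of PM for ERO1A therefore depends on the probe set.

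PDIA6, a disulfide isomerase of the ER lumen, read 12.92, 12.90, 13.22 and 12.80 in PM, 11.53, 11.62 and 12.20 in IVM, and 13.13, 12.72, 12.40 and 12.73 in VVM. The IVM arrays all lay below the other 8, while PM and VVM overlapped. The log2 difference was -0.96 ± 0.20 against VVM (adjusted p = 0.0107, limma) and -1.18 ± 0.20 against PM (adjusted p = 0.00109). Against VVM, 2 of its 3 probe sets were called lower, but against PM 1 of the others was called higher. The 2 other probe sets were both called higher in VVM than in PM (1.06 ± 0.19, adjusted p = 0.00185, and 0.81 ± 0.25, adjusted p = 0.0292, limma). The place of PM for PDIA6 therefore depends on the probe set.

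PDIA5, a related isomerase, differed in another way. It read 9.21, 8.88, 9.67 and 9.72 in PM, 9.99, 9.65 and 9.88 in IVM, and 11.07, 10.52, 10.29 and 10.62 in VVM, so that VVM stood above both other groups, which overlapped. It rose by 1.25 ± 0.21 in VVM against PM (adjusted p = 0.00117, limma), and its difference in IVM against VVM was -0.79 ± 0.23 (adjusted p = 0.0482). The latter call, close to the threshold, was lost without any 1 of 8 arrays (PM 1, PM 3, each IVM array, VVM 1, VVM 2 or VVM 4; adjusted p up to 0.163).

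Of the remaining isomerases, PDIA3, which acts on glycoproteins bound to calnexin, was lower in IVM than in PM (-0.60 ± 0.15, adjusted p = 0.0102, limma). PDIA4 was higher than in PM in both matured groups, by 0.54 ± 0.17 in IVM (adjusted p = 0.0283) and 0.67 ± 0.16 in VVM (adjusted p = 0.00886). One of its 4 probe sets was called lower in IVM, and the IVM call was lost without PM 1, PM 2, PM 3, IVM 2 or IVM 3 (adjusted p up to 0.0889). ERO1B, the second oxidase, was not called and read 6.38 to 6.86 in PM, 5.98 to 7.02 in IVM and 6.15 to 7.54 in VVM.

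Among the 12 ER chaperones and their cochaperones, IVM stood above VVM in 2 and below it in 2, and more rose than fell against PM (6 and 2 in IVM, 5 and 1 in VVM). These calls make up 33.3%, 66.7% and 50.0% of the list, beside 16.7%, 45.9% and 39.8% of all genes. DNAJC1, a membrane J-domain protein that works with the ER HSP70, read 6.89, 7.04, 7.43 and 6.83 in PM, 8.45, 7.92 and 8.03 in IVM, and 8.92, 9.0, 9.14 and 9.03 in VVM. The 3 groups did not overlap: PM was lowest, IVM in between and VVM highest. It rose by 1.97 ± 0.15 in VVM (adjusted p = 1.36e-05, limma) and by 1.08 ± 0.17 in IVM (adjusted p = 0.000619) against PM, and IVM lay below VVM by a log2 difference of -0.89 ± 0.17 (adjusted p = 0.00658). DNAJC10, a J-domain reductase that helps remove misfolded proteins, was called higher in VVM alone against PM: it read 11.81, 11.90, 11.84 and 11.42 in PM, 11.87, 11.52 and 12.16 in IVM, and 12.24, 12.61, 12.47 and 12.55 in VVM. Its difference was 0.73 ± 0.16 in VVM against PM (adjusted p = 0.00533) and -0.62 ± 0.17 in IVM against VVM (adjusted p = 0.0399), the latter lost without any 1 of 7 arrays (PM 1, PM 3, IVM 1, IVM 2, VVM 2, VVM 3 or VVM 4; adjusted p up to 0.155). The other DNAJC10 probe set, dimmer at a mean of 9.04, was called in neither of these comparisons (-0.083 ± 0.214 and -0.241 ± 0.231). The pattern of DNAJC10 therefore rests on 1 probe set.

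DNAJC25, another J-domain membrane protein, ran the other way. Its levels were 6.65, 6.30, 5.64 and 6.06 in PM, 9.46, 9.94 and 9.57 in IVM, and 8.15, 7.41, 7.76 and 8.56 in VVM. The groups again did not overlap, but here IVM was highest. The gene was 11.3-fold higher in IVM than in PM (3.49 ± 0.28, adjusted p = 1.55e-05, limma), and higher by 1.69 ± 0.28 in IVM than in VVM (adjusted p = 0.00386) and by 1.81 ± 0.26 in VVM than in PM (adjusted p = 0.00046). In the current annotation GNG10 is its neighbour, and the probe set of that gene read means of 9.54, 9.75 and 9.70 in PM, IVM and VVM.

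HSP90B1, the ER form of HSP90, read 10.16, 10.06, 10.51 and 10.04 in PM, 9.27, 9.26 and 9.64 in IVM, and 9.90, 9.26, 9.36 and 9.28 in VVM. All PM arrays lay above all matured ones, with differences of -0.80 ± 0.18 in IVM (adjusted p = 0.0058, limma) and -0.74 ± 0.17 in VVM (adjusted p = 0.00697). The other HSP90B1 probe set was called in the opposite direction in both comparisons, with differences of 0.73 and 0.59, so the direction for this gene depends on the probe set. CANX, the lectin that holds newly made glycoproteins, was not called in any comparison and had mean levels in PM, IVM and VVM of 13.02 ± 0.17, 12.93 ± 0.26 and 13.00 ± 0.09 (SD, n = 4, 3 and 4).

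The ER immunophilins are prolyl isomerases of secreted proteins; of those measured, FKBP10 and FKBP14 were not called in any comparison. FKBP11 read 8.08, 8.16, 8.67 and 8.55 in PM, 9.67, 10.23 and 9.72 in IVM, and 9.81, 8.44, 9.0 and 9.67 in VVM; IVM stood clear of PM, and VVM overlapped both. It rose by 1.51 ± 0.30 in IVM (adjusted p = 0.00298, limma) and by 0.87 ± 0.28 in VVM (adjusted p = 0.0375), the VVM call being lost without PM 1, PM 2, PM 4, VVM 1 or VVM 4 (adjusted p up to 0.0999). FKBP2 rose by 0.57 ± 0.13 in IVM (adjusted p = 0.00511) and 0.63 ± 0.12 in VVM (adjusted p = 0.00208), and no PM array reached a matured one. FKBP7 was higher in IVM, by 0.78 ± 0.19 against VVM (adjusted p = 0.021, lost without IVM 2 or IVM 3) and by 0.54 ± 0.19 against PM (adjusted p = 0.0386, lost without PM 1, PM 2, PM 4, IVM 2 or IVM 3). DNAJB11, an ER J-domain protein, was higher in IVM than in PM by 0.64 ± 0.21 (adjusted p = 0.028, lost without PM 2, PM 4 or IVM 3), and FKBP9 was lower (-0.47 ± 0.12, adjusted p = 0.0105). The other DNAJB11 probe set had the opposite sign in IVM against PM (-0.565 ± 0.259, not called). It was called lower in VVM than in PM (-1.27 ± 0.24, adjusted p = 0.00226, limma).

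Of 8 unfolded protein response factors and ER-associated degradation genes, 1 was lower and none higher in IVM than in VVM by limma (12.5% called, beside 16.7% of all genes). The same 1 and 0 passed an unadjusted p under 0.05. That gene was HERPUD1, a membrane protein of the degradation complex and a target of the unfolded protein response. It read 11.32, 12.17, 11.87 and 11.53 in PM, 11.21, 10.96 and 11.41 in IVM, and 12.15, 12.27, 12.32 and 12.38 in VVM. The IVM and VVM arrays did not overlap, and the difference was -1.09 ± 0.19 (adjusted p = 0.00451, limma). HERPUD1 was the 1 member called in opposite directions against PM: lower in IVM (-0.53 ± 0.19, adjusted p = 0.0444) and higher in VVM (0.56 ± 0.17, adjusted p = 0.0322). Both calls against PM were near the threshold and PM overlapped both groups. The IVM call was lost without any 1 of 8 arrays (PM 2, PM 3, IVM 1, IVM 2 or any VVM array; adjusted p up to 0.159), and the VVM call without PM 1, PM 4, VVM 2, VVM 3 or VVM 4 (adjusted p up to 0.0896).

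ATF4, the transcription factor of the integrated stress response, read 13.33, 13.99, 13.61 and 13.24 in PM, 12.60, 12.46 and 13.04 in IVM, and 13.19, 12.81, 12.69 and 12.74 in VVM. PM stood above both matured groups, which overlapped; the differences were -0.85 ± 0.21 in IVM (adjusted p = 0.008, limma) and -0.69 ± 0.19 in VVM (adjusted p = 0.0185, 0.0501 without VVM 3). ATF6, a sensor that is cut and moves to the nucleus under ER stress, was higher in IVM than in PM by 0.39 ± 0.13 (adjusted p = 0.0304), a call lost without PM 1, PM 2, PM 4, IVM 1 or IVM 3. XBP1 was not called and read 10.33 to 10.94 in PM, 10.06 to 10.55 in IVM and 10.35 to 10.99 in VVM. Its other, dimmer probe set was called lower in IVM, by -0.87 ± 0.24 against VVM (adjusted p = 0.0423) and -0.76 ± 0.24 against PM (adjusted p = 0.0289), and neither probe set was used to read splicing. DDIT3, which encodes the stress factor CHOP, was not called either: it read 6.60 to 8.45 in PM, 7.73 to 8.99 in IVM and 7.49 to 8.71 in VVM, so that the groups overlapped. SEL1L3, a relative of the ER degradation adaptor SEL1L, read 7.63, 7.59, 6.55 and 7.13 in PM, 4.77, 4.49 and 6.38 in IVM, and 4.87, 5.30, 4.70 and 4.75 in VVM. All PM arrays were higher than all others, with differences of -2.01 ± 0.41 in IVM (adjusted p = 0.00294) and -2.32 ± 0.38 in VVM (adjusted p = 0.00091).

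**Figure D2:**
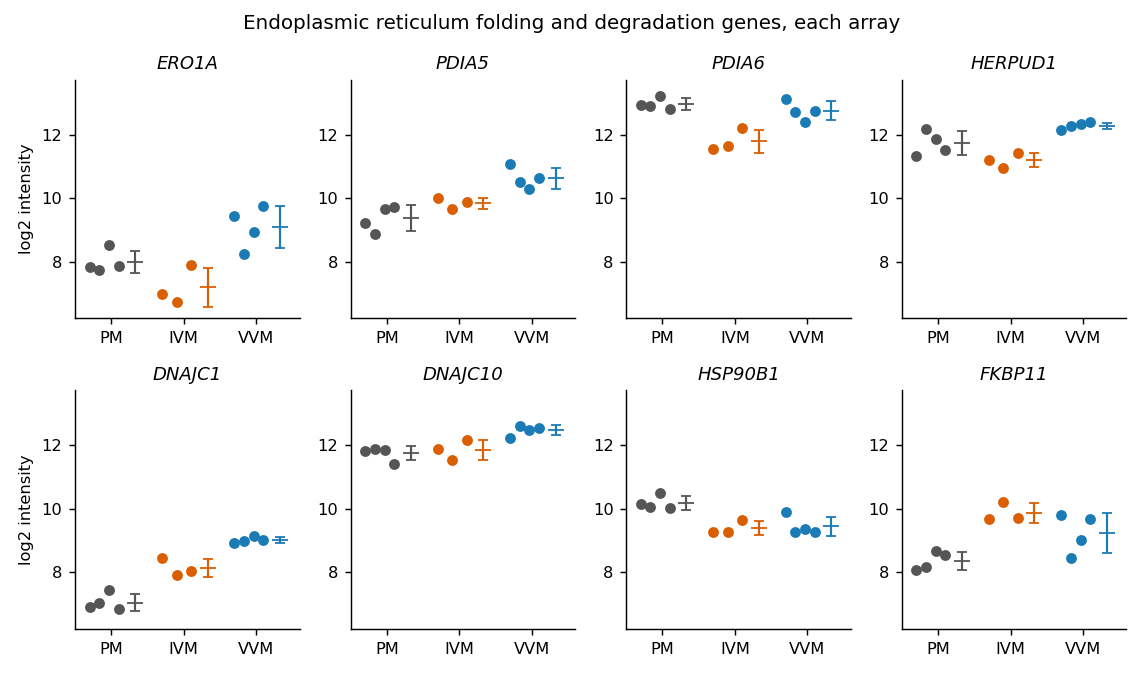
Log2 intensity of 8 ER chaperone, disulfide formation and degradation genes in the PM, IVM and VVM arrays. Points are single arrays, and the dash and bar are the group mean ± SD. On the probe sets plotted, ERO1A, PDIA6, HERPUD1 and DNAJC10 are lower in IVM than in VVM. On these probe sets DNAJC1 rises from PM through IVM to VVM, and HSP90B1 is highest in PM.

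In a second set of genes, all IVM arrays lay above or below all PM and VVM arrays on the chosen probe set. In all, 6 members lay above every PM and every VVM array in all IVM arrays (BAG2, DNAJC25, DNAJC28, DNAJC4, FKBP1B and HSPB7), which is 6.45% of the members beside 9.13% of all genes. Another 10 lay below them in all IVM arrays (BAG4, BAG6, CCT2, DNAJB1, DNAJB4, DNAJB6, FKBP9, HSF2, PDIA3 and PDIA6), 10.8% beside 5.96% of all genes. These counts describe the arrays and are not a test of the list. Of these genes, HSPB7, BAG6, FKBP9, HSF2 and PDIA3 were not called between IVM and VVM (adjusted p of 0.0972 to 0.187, limma).

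FKBP1B, the small immunophilin that stabilises ryanodine receptor calcium channels, had the largest rise of the members in IVM against VVM. Its levels were 6.12, 5.67, 6.40 and 6.37 in PM, 7.88, 8.34 and 8.46 in IVM, and 6.13, 5.75, 5.96 and 6.22 in VVM. All 3 IVM arrays stood above the other 8, and PM and VVM overlapped. FKBP1B was 4.63-fold higher in IVM than in VVM (2.21 ± 0.20, adjusted p = 0.000169, limma) and higher by 2.09 ± 0.20 than in PM (adjusted p = 3.86e-05).

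BAG2, an HSP70 nucleotide exchange factor that inhibits the ubiquitin ligase CHIP, read 7.76, 7.12, 7.01 and 7.13 in PM, 8.25, 8.0 and 7.97 in IVM, and 7.31, 6.10, 6.17 and 6.78 in VVM. The IVM arrays were again all above the other 8. BAG2 was higher in IVM than in VVM by 1.48 ± 0.28 (adjusted p = 0.00664, limma), on both of its probe sets, and than in PM by 0.81 ± 0.28 (adjusted p = 0.0375), a call lost without PM 2, PM 3, PM 4 or any 1 IVM array (adjusted p up to 0.116). DNAJC28, a J-domain protein, was higher in IVM by 1.15 ± 0.22 than in VVM (adjusted p = 0.00721) and by 1.24 ± 0.22 than in PM (adjusted p = 0.00143). Its levels of 3.0 to 4.78 lay below the array medians of 5.34 to 5.53 in all 11 arrays, so this probe set was dim throughout.

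BAG4, an HSP70 cochaperone that also silences death receptors, moved the opposite way. It read 9.81, 9.58, 9.66 and 9.71 in PM, 7.95, 7.96 and 8.72 in IVM, and 9.41, 9.35, 9.63 and 9.49 in VVM. The IVM arrays were all below the others, and the differences were -1.26 ± 0.18 against VVM (adjusted p = 0.00156, limma) and -1.48 ± 0.18 against PM (adjusted p = 0.000128). One of its 2 other probe sets was called higher in IVM than in PM. Both of these dimmer probe sets (means of 6.07 and 2.51) had the opposite sign in IVM against VVM and were not called there (0.455 ± 0.331 and 0.14 ± 0.11). Both BAG4 differences therefore depend on the probe set and are uncertain.

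The 3 genes DNAJB1, DNAJB4 and DNAJB6 were lower in IVM than in both other groups. DNAJB1, the main J-domain partner of cytosolic HSP70 and a classical heat shock gene, read 11.76, 10.87, 11.78 and 11.36 in PM, 10.34, 9.65 and 10.12 in IVM, and 11.44, 11.55, 11.56 and 10.82 in VVM. It was lower in IVM by -1.30 ± 0.26 than in VVM (adjusted p = 0.00871, limma) and by -1.40 ± 0.26 than in PM (adjusted p = 0.00182), and both of its probe sets were called in each comparison. DNAJB4, a close relative of DNAJB1, read 6.12, 6.90, 6.44 and 6.01 in PM, 5.21, 4.07 and 4.90 in IVM, and 6.01, 5.85, 5.74 and 5.92 in VVM. Its differences were -1.16 ± 0.27 against VVM (adjusted p = 0.017, but -0.83 and 0.0585 without IVM 2) and -1.64 ± 0.27 against PM (adjusted p = 0.000803). DNAJB6, which keeps aggregation-prone proteins soluble, read 9.92, 9.79, 9.76 and 9.37 in PM, 8.06, 8.08 and 8.80 in IVM, and 9.47, 9.66, 8.88 and 9.0 in VVM. Its differences were -0.94 ± 0.24 against VVM (adjusted p = 0.0262, up to 0.108 without IVM 1, IVM 2, VVM 1 or VVM 2) and -1.40 ± 0.24 against PM (adjusted p = 0.00107). On these probe sets PM and VVM overlapped in all 3 genes and every IVM array lay below them. For DNAJB6, however, 2 of its 5 probe sets were called lower in VVM than in PM as well (-1.01 ± 0.14, adjusted p = 0.000409, and -1.15 ± 0.17, adjusted p = 0.000565), and on the second of these IVM was not called apart from VVM.

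**Figure D3:**
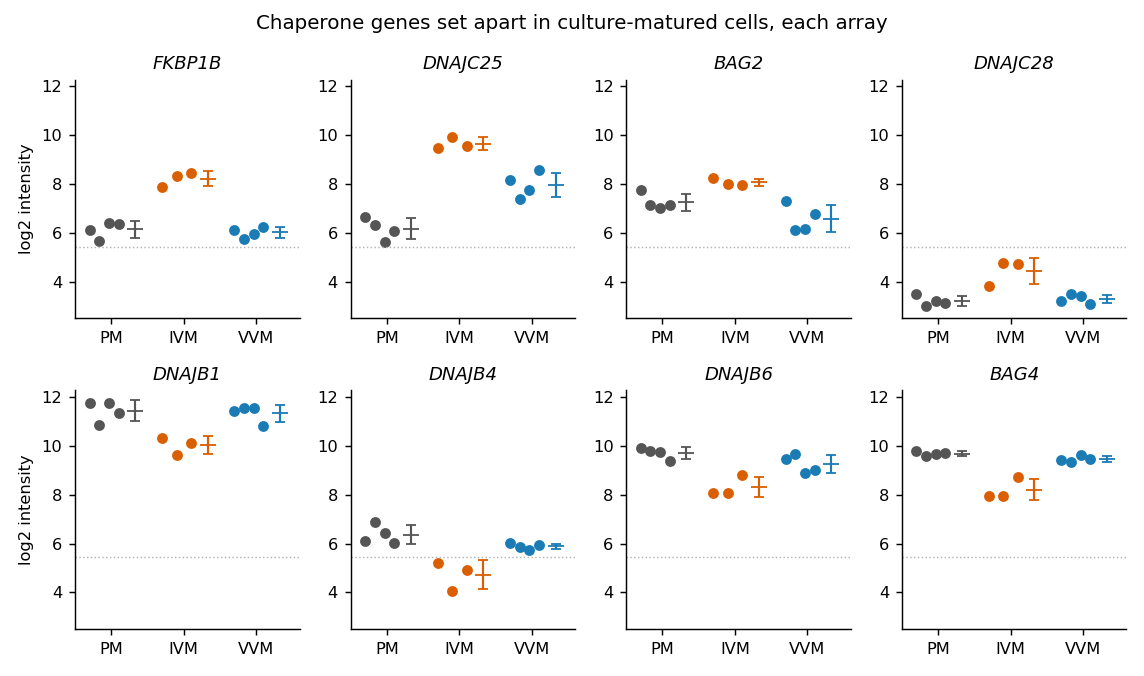
Log2 intensity of 8 cochaperone genes that set IVM arrays apart from PM and VVM arrays. Points are single arrays, the dash and bar are the group mean ± SD, and the dotted line is the mean of the array medians. On the probe sets plotted, FKBP1B, DNAJC25, BAG2 and DNAJC28 are higher in all 3 IVM arrays. DNAJB1, DNAJB4, DNAJB6 and BAG4 are lower in all 3 on theirs.

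A different pattern was shared by both matured groups. The comparisons of IVM and of VVM with PM use the same 4 PM arrays, so they are not independent and their values are given side by side. Against PM, 9 members were higher in both (DNAJC1, DNAJC25, FKBP11, FKBP15, FKBP2, FKBP5, HSPB3, PDIA2 and PDIA4) and 15 were lower in both. In 18 members every PM array lay above every matured array (19.4%, beside 13.5% of all genes), and in 7 every PM array lay below (7.53%, beside 14.9%).

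Of the heat shock factors, HSF1, the master regulator of the heat shock response, was not called on its brighter probe set, which read 8.40 to 8.69 in PM, 8.69 to 9.18 in IVM and 8.30 to 8.69 in VVM. Its other probe set, near the array medians, was called higher in IVM than in PM by 0.66 ± 0.16 (adjusted p = 0.00721, limma). HSF2, which forms mixed trimers with HSF1 and has roles in development, read 9.08, 9.71, 9.20 and 8.82 in PM, 6.67, 5.87 and 6.62 in IVM, and 6.99, 6.79, 6.73 and 7.07 in VVM. PM stood well above both matured groups, with differences of -2.81 ± 0.23 in IVM (adjusted p = 1.65e-05, limma) and -2.31 ± 0.21 in VVM (adjusted p = 3.11e-05). HSF4, known from lens development, had the largest fall of the members against PM, from 10.10, 10.45, 9.94 and 10.16 in PM to 4.16, 5.78 and 6.02 in IVM and 5.12, 7.51, 6.39 and 7.51 in VVM. The differences were -4.84 ± 0.57 (adjusted p = 0.000112) and -3.53 ± 0.53 (adjusted p = 0.000532). However, the other HSF4 probe set was called higher in both comparisons, by 0.52 and 0.41, so the probe sets disagree about this gene. Between IVM and VVM none of the 3 factors was called by limma, while 1 was higher and 2 lower at an unadjusted p under 0.05.

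Of 9 cytosolic HSP90 genes and immunophilins, 2 were called between IVM and VVM (22.2%, beside 16.7% of all genes), 5 between IVM and PM (55.6%, beside 45.9%) and 6 between VVM and PM (66.7%, beside 39.8%). HSP90AB1, the constitutive HSP90, read 13.48, 13.71, 13.36 and 13.40 in PM, 12.67, 12.72 and 13.11 in IVM, and 12.42, 12.60, 12.38 and 12.77 in VVM. No matured array reached a PM array; the differences were -0.65 ± 0.15 in IVM (adjusted p = 0.00561, limma; 3 of 4 probe sets lower) and -0.94 ± 0.14 in VVM (adjusted p = 0.000467; 4 of 4 lower). HSP90AA1, the stress-inducible form, was annotated to a single probe set close to the array medians (means of 6.16, 5.87 and 5.63 in PM, IVM and VVM) and was lower in VVM than in PM by -0.53 ± 0.13 (adjusted p = 0.00944). Whether that probe set reads this gene was not tested.

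FKBP4 and FKBP5 are immunophilins that compete for HSP90 on steroid hormone receptors, and they moved in opposite directions. FKBP4, which favours hormone binding by the progesterone and glucocorticoid receptors, read 10.75, 10.28, 10.71 and 10.60 in PM, 9.01, 8.22 and 9.20 in IVM, and 8.02, 8.25, 7.93 and 7.62 in VVM. All PM arrays lay well above the matured arrays, with IVM overlapping the top of VVM by IVM 2 alone. The differences were -1.77 ± 0.23 in IVM (adjusted p = 0.000206, limma) and -2.63 ± 0.21 in VVM, a 6.20-fold lower level (adjusted p = 1.51e-05), on 2 of its 3 probe sets. FKBP4 was higher in IVM than in VVM by 0.86 ± 0.23 (adjusted p = 0.0342), a call lost without VVM 1, VVM 3, VVM 4, IVM 1 or IVM 3 (0.66 to 1.15, adjusted p up to 0.106).

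FKBP5, which lowers hormone binding and is itself induced by glucocorticoids and progesterone, read 5.82, 5.80, 5.86 and 6.03 in PM, 8.17, 8.02 and 8.23 in IVM, and 9.16, 7.82, 9.36 and 8.38 in VVM. Every matured array exceeded every PM array, and IVM lay within the range of VVM. FKBP5 was higher by 2.26 ± 0.30 in IVM (adjusted p = 0.000239, limma) and 6.97-fold higher in VVM (2.80 ± 0.28, adjusted p = 4.42e-05) than in PM. FKBP15, an FKBP-like protein linked to the actin skeleton, was also higher in both, by 0.60 ± 0.11 (adjusted p = 0.00202) and 0.40 ± 0.10 (adjusted p = 0.0146). FKBPL was lower in VVM than in PM (-0.63 ± 0.16, adjusted p = 0.0108).

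**Figure D4:**
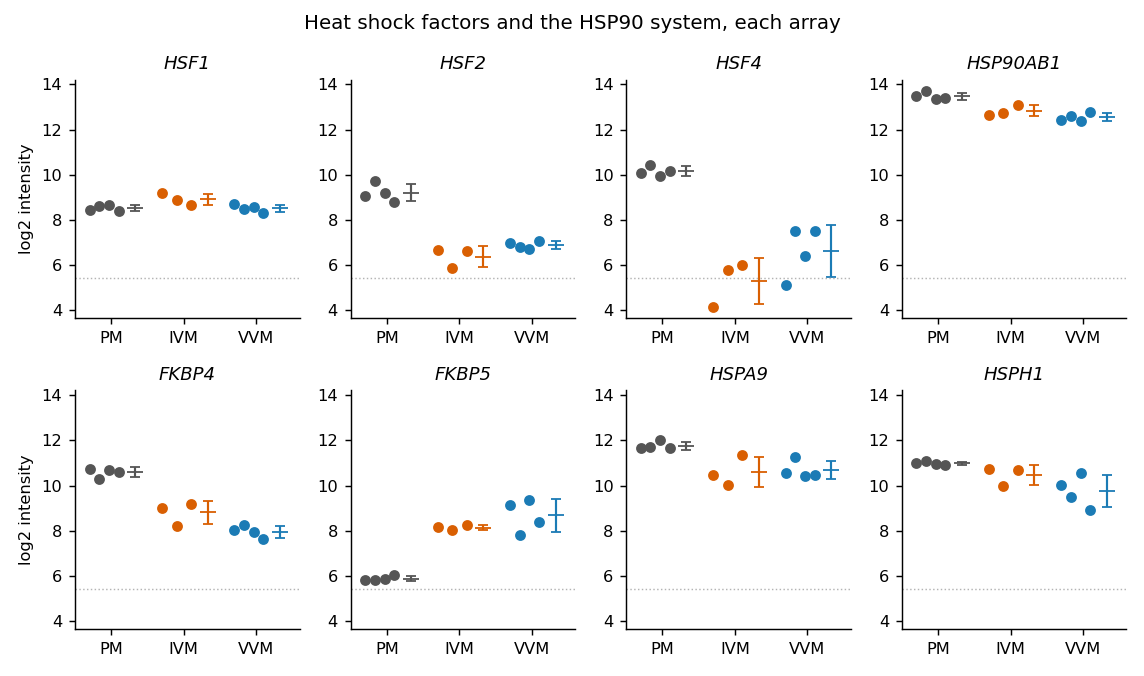
Log2 intensity of 3 heat shock factors, HSP90AB1, the immunophilins FKBP4 and FKBP5, the mitochondrial HSP70 HSPA9 and HSPH1 in the PM, IVM and VVM arrays. Points are single arrays, the dash and bar are the group mean ± SD, and the dotted line is the mean of the array medians. On the probe sets plotted, HSF2, HSF4, HSP90AB1, FKBP4 and HSPA9 are highest in PM and FKBP5 is lowest in PM. The HSF1 probe set plotted is not called in any comparison.

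The cytosolic HSP70 and HSP110 genes had few calls in any 1 comparison. Of 7 measured, 1 was higher and none lower in IVM than in VVM by limma (3 and 0 at an unadjusted p under 0.05), IVM was above PM in 1 and below it in 1, and VVM was below PM in 2 and above it in none (3 and 0 at an unadjusted p under 0.05). These calls make up 14.3%, 28.6% and 28.6% of the list, beside 16.7%, 45.9% and 39.8% of all genes. HSPA8, the constitutive HSP70, was not called in any comparison and read 12.40 to 13.03 over the 11 arrays, although the dimmest of its 3 probe sets was called lower in VVM than in PM (-0.58 ± 0.20, adjusted p = 0.0423). HSPA12A, a distant HSP70 relative, read 5.89, 6.97, 7.07 and 6.91 in PM, 4.32, 3.99 and 4.29 in IVM, and 4.5, 4.40, 4.68 and 4.26 in VVM, falling from above the array medians to below them. The differences were -2.52 ± 0.25 (adjusted p = 4.37e-05, limma) and -2.25 ± 0.23 (adjusted p = 5.76e-05). HSPH1, the HSP110 exchange factor, read 10.98, 11.08, 10.95 and 10.90 in PM, 10.74, 9.97 and 10.71 in IVM, and 10.04, 9.49, 10.57 and 8.90 in VVM. It was lower in VVM than in PM by -1.23 ± 0.30 (adjusted p = 0.0106), and the VVM arrays spread more widely than the PM arrays. Another of its 6 probe sets, dimmer at a mean of 6.95, was called higher in IVM, by 1.89 ± 0.28 than in VVM (adjusted p = 0.00191) and by 1.22 ± 0.28 than in PM (adjusted p = 0.00563), so the place of IVM for HSPH1 depends on the probe set. HSPA4, another HSP110, was higher in IVM than in PM by 0.58 ± 0.14 (adjusted p = 0.00815), but 2 of its 6 probe sets were called lower. HSPA4L was higher in IVM than in VVM by 0.76 ± 0.22 (adjusted p = 0.0489), from levels below the array medians, and the call was lost without any 1 of 8 arrays (PM 3, PM 4, IVM 2, IVM 3 or any VVM array).

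Of 5 small heat shock proteins, which hold unfolded proteins until HSP70 takes them, none was called between IVM and VVM by limma (2 higher and 0 lower at an unadjusted p under 0.05). In that comparison 16.7% of all genes were called. HSPB6, known from muscle as a partner of the actin skeleton, read 9.16, 8.59, 10.31 and 8.79 in PM, 7.16, 7.60 and 7.85 in IVM, and 5.80, 7.88, 6.79 and 6.17 in VVM. All PM arrays were above all matured arrays. The differences were -1.68 ± 0.49 in IVM (adjusted p = 0.0186, limma; 0.0706 without IVM 1) and -2.55 ± 0.45 in VVM (adjusted p = 0.00157). HSPB7 was higher in IVM than in PM by 0.53 ± 0.13 (adjusted p = 0.00886). HSPB3 (0.39 ± 0.12, adjusted p = 0.0208) and HSPB9 (0.53 ± 0.17, adjusted p = 0.0256) were also higher in IVM than in PM, from levels below or near the array medians, and each call was lost without any 1 of 4 arrays (PM 1, PM 2, IVM 1 or IVM 3 for HSPB3, and PM 1, PM 3, IVM 1 or IVM 2 for HSPB9). HSPB8, which works with BAG3 in selective autophagy, and BAG3 itself were not called: HSPB8 averaged 8.77, 8.59 and 8.68 and BAG3 8.91, 9.58 and 9.18 in PM, IVM and VVM. The other HSPB8 probe set, nearly as bright (mean 8.45 against 8.69), was called higher in IVM than in VVM by 2.15 ± 0.50 (adjusted p = 0.0182, limma), so the probe sets disagree about this gene.

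The BAG proteins are HSP70 exchange factors. Of 6, IVM was above PM in 1 and below it in 4, and VVM was below PM in 2 and above it in none (3 and 0 at an unadjusted p under 0.05, limma). These calls make up 83.3% of the family in IVM, beside 45.9% of all genes, and 33.3% in VVM, beside 39.8%. BAG1, which links HSP70 to the proteasome and to cell survival, read 9.87, 10.15, 10.04 and 9.88 in PM, 9.03, 8.37 and 8.56 in IVM, and 8.21, 8.16, 8.29 and 7.46 in VVM. PM was highest and VVM lowest with no overlap among the 3 groups, although IVM and VVM were not called apart. The differences from PM were -1.33 ± 0.21 in IVM (adjusted p = 0.000727) and -1.95 ± 0.20 in VVM (adjusted p = 4.79e-05). BAG5 was lower in both, by -1.12 ± 0.19 (adjusted p = 0.0012) and -0.88 ± 0.18 (adjusted p = 0.00364), and BAG6 in IVM alone among the calls (-0.59 ± 0.14, adjusted p = 0.00755).

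On the chosen probe sets, most measured subunits of the CCT chaperonin were lower after in vivo maturation than in PM. Of 6, 5 were lower and none higher in VVM than in PM, the same by an unadjusted p under 0.05 (limma). In IVM against PM 1 was lower and none higher (1 and 1 at an unadjusted p under 0.05). These calls make up 83.3% of the subunits in VVM, where 21.8% of all genes were called lower, and 16.7% in IVM, where 20.9% were. CCT5 read 11.11, 11.11, 10.87 and 10.95 in PM, 11.05, 10.81 and 11.29 in IVM, and 10.51, 10.24, 10.20 and 10.21 in VVM. The VVM arrays lay below all others while PM and IVM overlapped; the differences were -0.72 ± 0.13 in VVM against PM (adjusted p = 0.00153) and 0.76 ± 0.14 in IVM against VVM (adjusted p = 0.00526). CCT6A was likewise lowest in VVM on its brighter probe set, with -0.79 ± 0.17 in VVM against PM (adjusted p = 0.00465) and 0.66 ± 0.18 in IVM against VVM (adjusted p = 0.038). The second call was lost without any 1 of 7 arrays (PM 1, IVM 1, IVM 3 or any VVM array, adjusted p up to 0.109). The other CCT6A probe set was called lower in IVM than in PM (-0.94 ± 0.22, adjusted p = 0.00694, limma) and not called between IVM and VVM (-0.40 ± 0.22), so the place of IVM depends on the probe set.

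CCT7 was lower in VVM than in PM by -0.89 ± 0.19 (adjusted p = 0.00526, limma) and CCT4 by -0.54 ± 0.12 (adjusted p = 0.00559). CCT8, at means of 11.52, 11.85 and 11.45 in PM, IVM and VVM, was the 1 subunit with no call. CCT2 differed from the rest: it read 13.04, 13.03, 13.00 and 12.96 in PM, 11.93, 11.86 and 11.89 in IVM, and 12.80, 12.32, 12.28 and 12.24 in VVM, so IVM and not VVM was lowest. Its differences were -1.12 ± 0.14 in IVM (adjusted p = 0.000135) and -0.60 ± 0.12 in VVM (adjusted p = 0.0041) against PM, and -0.52 ± 0.14 in IVM against VVM (adjusted p = 0.0308, up to 0.0945 without any 1 IVM array). The 10 CCT2 probe sets disagreed: in VVM against PM 2 were called higher and 2 lower, so the direction for this subunit is uncertain. Across all genes, VVM lay below every other array in 5.84%, and of the members 5 did (BAG1, CCT5, CCT6A, CCT7 and DNAJC11, 5.38%).

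**Figure D5:**
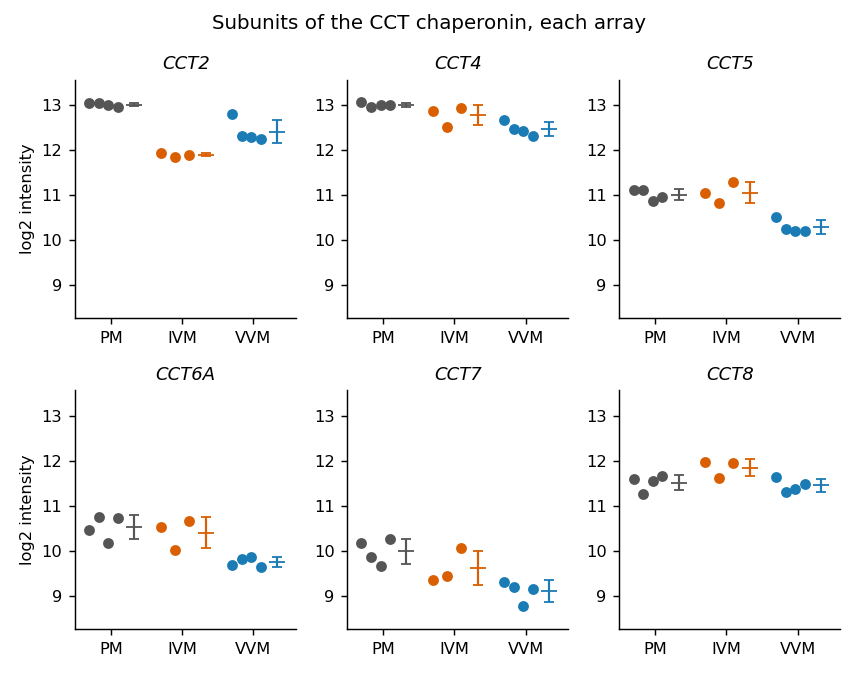
Log2 intensity of the 6 measured subunits of the CCT chaperonin in the PM, IVM and VVM arrays. Points are single arrays, and the dash and bar are the group mean ± SD. On the probe sets plotted, CCT5, CCT6A and CCT7 are lowest in VVM, CCT2 is lowest in IVM, and CCT8 is not called.

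Of 3 mitochondrial chaperones, HSPA9, the mitochondrial HSP70, read 11.66, 11.70, 11.99 and 11.65 in PM, 10.48, 10.01 and 11.34 in IVM, and 10.57, 11.28, 10.43 and 10.48 in VVM. On this probe set it was lower in both matured groups, by -1.14 ± 0.29 (adjusted p = 0.00956, limma) and -1.06 ± 0.27 (adjusted p = 0.0113), with no PM array reaching the others. Another HSPA9 probe set, nearly as bright (mean 10.96 against 11.05), was called lower in VVM (-0.895 ± 0.247, adjusted p = 0.018, limma). It was not called in IVM against PM (-0.575 ± 0.267), where IVM 3 at 11.29 lay above PM 4 at 11.09. The place of IVM for HSPA9 therefore depends on the probe set. DNAJA3, the J-domain partner of HSPA9, was higher in IVM than in VVM by 0.72 ± 0.19 (adjusted p = 0.0331) and than in PM by 0.53 ± 0.19 (adjusted p = 0.0454). The first of these was lost without VVM 1, VVM 3, VVM 4, IVM 1 or IVM 3 (adjusted p up to 0.0971) and the second without any 1 of 7 arrays (PM 1, PM 2, PM 4, IVM 1, IVM 3, VVM 3 or VVM 4; up to 0.153). DNAJC19 was not called.

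The other 26 J-domain proteins had 3 higher and 3 lower between IVM and VVM, 3 and 9 in IVM against PM, and none higher and 4 lower in VVM against PM (3 and 7 at an unadjusted p under 0.05, limma). These calls make up 23.1%, 46.2% and 15.4% of the list, beside 16.7%, 45.9% and 39.8% of all genes. DNAJC8, a splicing-associated J-domain protein, had the smallest adjusted p among the members: it read 10.83, 10.69, 10.68 and 10.63 in PM, 9.26, 9.16 and 9.43 in IVM, and 9.29, 9.04, 8.98 and 8.82 in VVM. PM stood well above every matured array, and the differences were -1.42 ± 0.13 (adjusted p = 2.54e-05) and -1.67 ± 0.12 (adjusted p = 8.1e-06) on both probe sets. DNAJC11, a protein of the mitochondrial membranes, was lower in VVM than in PM by -1.14 ± 0.18 (adjusted p = 0.000766) on all 3 probe sets. It was higher in IVM than in VVM by 0.69 ± 0.19 (adjusted p = 0.0415), a call lost without any array but VVM 2. DNAJC4 was higher in IVM by 0.70 ± 0.20 than in VVM (adjusted p = 0.0457, lost without any array but PM 3 and IVM 1) and by 0.88 ± 0.20 than in PM (adjusted p = 0.00545). DNAJC9, a histone chaperone, was lower in IVM than in PM by -1.0 ± 0.22 (adjusted p = 0.00483). CCT8L2, a chaperonin-like gene outside these roles, was dim in every group and higher in VVM than in PM by 0.35 ± 0.11 (adjusted p = 0.0338), a call lost without PM 1, PM 2, VVM 1, VVM 2 or VVM 3.

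In 4 members every VVM array was above all others (DNAJC1, DNAJC10, DNAJC16 and PDIA5), 4.30% beside 3.93% of all genes. DNAJC16 was not called against either group.

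Genes of the same pathways outside the symbol rule were listed by role for comparison. Of 42 other ER folding and quality control genes, 35 were measured, and 4 were lower and none higher in IVM than in VVM by limma (8 and 4 at an unadjusted p under 0.05). The 4 were TXNDC11 (-1.40), the degradation channel protein DERL1 (-1.27), the mannosidase-like EDEM1 (-1.09) and P4HB (-0.61), the main protein disulfide isomerase. In VVM against PM 11 of these 35 were higher and 2 lower, and in IVM against PM 10 and 8. Calls made up 11.4% of the 35 in IVM against VVM, 37.1% in VVM against PM and 51.4% in IVM against PM. The shares of all genes were 16.7%, 39.8% and 45.9%. Of 23 other unfolded protein response genes, 15 were measured: 1 was higher in IVM than in VVM, TRIB3 (1.44), an ATF4 target that dampens Akt signalling, and 2 were lower, the ER stress kinase EIF2AK3 (-1.09) and the protease MBTPS2 (-1.17), which cuts ATF6. Against PM, 5 were higher and 4 lower in IVM, and 3 and 3 in VVM.

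Of 30 other cytosolic and mitochondrial chaperone genes, 21 were measured, and IVM stood above VVM in 9 and below it in 2. The higher ones included the prefoldin subunit PFDN6 (1.54), the mitochondrial protease LONP1 (1.01) and the HSP90 cochaperone TTC4 (0.92). The 2 lower were CLPX (-1.16), the unfoldase of a mitochondrial protease, and AHSA1 (-0.50), which activates HSP90. Against PM, 10 were higher and 6 lower in IVM, and 5 and 6 in VVM. Calls made up 52.4% of the 21 in IVM against VVM, 76.2% in IVM against PM and 52.4% in VVM against PM, beside 16.7%, 45.9% and 39.8% of all genes.

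How far a gene's probe sets bore each other out varied. Of the members called between IVM and VVM, 13 had several probe sets, and in 1 of these (CCT2) another probe set was called in the opposite direction. The same held for 8 of 28 in IVM against PM (BAG4, CCT2, DNAJA1, HSF4, HSP90B1, HSPA4, PDIA4 and PDIA6) and 5 of 20 in VVM against PM (CCT2, DNAJC21, ERO1A, HSF4 and HSP90B1). Conversely, some members that were not called had another probe set that was: 5 of 36 with several probe sets in IVM against VVM (DNAJB5, HSP90AB1, HSPB8, HSPH1 and XBP1), 10 of 21 in IVM against PM and 7 of 29 in VVM against PM. In the current annotation 28 of the 93 genes overlap another protein-coding gene, among them HERPUD1, PDIA6, BAG4, DNAJC11 and HSPB6, and the positions of the probes were not used here. Of the 23 calls between IVM and VVM, 11 were made in every fit that left out 1 array: BAG2, BAG4, CCT5, DNAJB1, DNAJC1, DNAJC25, DNAJC28, ERO1A, FKBP1B, HERPUD1 and PDIA6. The same was so for 34 of the 49 calls in IVM against PM and 31 of the 38 in VVM against PM.

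Several well-known members of these families were not analysed here because no probe set carried their symbol alone: the ER chaperones HSPA5, CALR and HYOU1, the ER cochaperones DNAJB9 and DNAJC3, the degradation adaptor SEL1L, the inducible HSPA1A and HSPA1B, the mitochondrial HSPD1 and HSPE1, and HSPB1.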

How the data were processed

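RNA of 11 rhesus cumulus cell samples was read on Affymetrix arrays. The deposited values are linear intensity per probe set, which the authors made with Affymetrix Expression Console and RMA, per the submitters' processing notes; no version or setting is given there. RMA corrects background, normalises the arrays and summarises probes. The deposited arrays did not share one distribution: their medians ran from 5.34 to 5.53 on the log2 scale and were lowest in PM. Log2 was taken with no pseudocount. Of 52865 probe sets, 99 array controls were left out and 52766 were tested with limma 3.58.1 in R 4.3.3: a model of 3 group means and empirical Bayes variances (8 residual and 3.3 prior degrees of freedom), Benjamini-Hochberg adjusted per comparison and called under 0.05. The fitting code was tested on simulated data.

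Symbols came from the platform annotation: 24956 tested probe sets had 1 symbol, 361 had several and 27449 had none. All 93 members matched the current RefSeq annotation, used for names and overlaps only. A gene was taken as its brightest probe set with 1 symbol; 2 probe sets that carry a member's symbol beside another were not used. The genes named are a core list of well-known chaperones, the 8 members with the largest called rise and fall in each comparison and the largest difference in each role; further members were named after their values were seen. The members and lists were chosen with earlier results of these data known. Groups come from sample titles. Same-numbered arrays of different groups had residual correlations between -0.107 and 0.101, so the numbers do not pair the samples. Signal over background was not used, and no sequences are shown.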

Additional observations from a re-analysis of the deposited data

Results flagged for a closer look

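Among the 4 PM or the 4 VVM arrays, single arrays stood apart from the other 3 in 13 of 98 groups of 4 values examined (a gap to the next array above Dixon's 95% critical value), for the genes chosen by the naming rule. Chance alone flags about 5% of such groups, the arrays of a gene are shared with all others, and the groups of 3 IVM arrays were not examined. In VVM 4, BAG1 was lowest at 7.46 (next 8.16), DDIT3 lowest at 7.49 (next 8.57) and DNAJB1 lowest at 10.82 (next 11.44). In VVM 1, CCT2 was highest at 12.80 (next 12.32), CCT5 highest at 10.51 (next 10.24) and HSP90B1 highest at 9.90 (next 9.36). VVM 2 was highest for HSPA9 at 11.28 (next 10.57), and VVM 3 lowest for FKBP7 at 6.29 (next 6.76).

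In PM 1, BAG2 was highest at 7.76 (next 7.13) and HSPA12A lowest at 5.89 (next 6.91). In PM 3, ERO1A was highest at 8.51 (next 7.86) and HSPA9 highest at 12.0 (next 11.7). In PM 2, PDIA3 was lowest at 11.81 (next 12.32). No array carried more than 3 of the 13 values. No call of these genes was lost when the array that stood apart was left out.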

How the results depend on the processing

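Each count of members and each of the 110 called differences was computed again under other settings. Of 2629 such single-gene values, 2094 stayed called in the same direction, 526 lost the call and 9 turned sign. Averaging all probe sets of a symbol turned 5 in sign: BAG4 (0.009), DNAJA1 (0.298), HSPA4 (-0.30) and PDIA4 (-0.462) in IVM against PM, and CCT2 (0.014) in VVM against PM. With the hybridization control level as a covariate, 4 in IVM against PM did so: DNAJA1 (0.306), DNAJC9 (0.392), HSP90B1 (0.101) and HSPB9 (-0.093). That covariate nearly follows the groups, and left 5 higher and 0 lower in IVM against VVM, 0 and 0 against PM, and 4 and 8 in VVM against PM by limma (16 and 8, 15 and 6, and 12 and 14 at an unadjusted p under 0.05). Of all genes, 1.28% and 0.877%, 0% and 0.0142%, and 4.78% and 6.06% were called there.

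Other counts moved by over 1.5 times as follows, with the share of all genes called in the same setting in parentheses. Centring each array gave 7 higher in IVM against VVM (7.59%), 12 in IVM against PM (14.7%) and 8 in VVM against PM (12.1%). The mean of all probe sets gave 7 lower in IVM against VVM (7.01%) and 9 higher in VVM against PM (17.2%). A 2-fold minimum left 4 higher and 5 lower (3.13% and 4.85%), 6 and 16 (5.08% and 12.8%), and 5 and 11 (5.65% and 11.3%). In IVM against VVM, higher calls were 7 with array weights (6.4%) and 6 with only the groups compared (6.65%). The 3′ to 5′ covariate gave 9 higher and 12 lower in IVM against PM (7.68% and 9.6%) and 8 higher in VVM against PM (9.38%). Without PM 1, VVM 2 and VVM 3 there were 4 higher and 4 lower in IVM against VVM (4.65% and 5.21%), namely BAG2, BAG4, DNAJC25, DNAJC28, ERO1A, FKBP1B, HERPUD1 and PDIA6. In VVM against PM there were then 7 higher and 14 lower (8.16% and 13.2%). The replicate block gave 6 higher in IVM against VVM (7.32%). The other counts with this block moved by less than 1.5 times. They were 9 lower in IVM against VVM (6.41%), 18 higher and 26 lower in IVM against PM (20.6% and 19.1%), and 13 and 26 in VVM against PM (15.6% and 20.9%). The replicate numbers do not pair the samples.

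Leaving out 1 array gave 6 to 10 higher and 6 to 11 lower in IVM against VVM, 13 to 22 and 24 to 31 in IVM against PM, and 10 to 17 and 23 to 27 in VVM against PM. In IVM against VVM, higher calls were 6 without IVM 3, VVM 1 or VVM 4 (7.92%, 6.49% and 7.25% of all genes) and 7 without VVM 3 (7.67%). Lower calls there were 7 without IVM 1 (6.25%) and 6 without IVM 2 (4.39%). In IVM against PM, higher calls were 13 without PM 2 (21.7%). The causes were not tested. With 3 or 4 arrays a group and no detection values, small differences of dim genes could not be resolved.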
